A study of Homo sapiens with 3 samples.

Results

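The mitochondrial respiratory chain was measured in Caki-1, a long-established cell line from a human clear cell renal carcinoma, after depletion of RBCK1 (also called HOIL-1), a ubiquitin ligase of the linear ubiquitin assembly complex. Respiratory chain genes were taken as every protein-coding row of the deposited table that lies on the mitochondrial DNA or whose symbol starts with NDUFA, NDUFB, NDUFC, NDUFS, NDUFV, UQCR, ATP5 or COX4 to COX8, with SDHA, SDHB, SDHC and SDHD. This gave 110 genes of 19233 protein-coding genes and 44591 rows in all, 13 of them on the mitochondrial DNA and 97 in the nucleus. The question was how RNA of the chain, in its mitochondrial and nuclear parts and in its 5 complexes, stood in cells depleted of RBCK1 against control cells. Cells had received a control siRNA (si-Control) or 1 of 2 siRNAs against RBCK1, called si-RBCK1 #1 and si-RBCK1 #2 here and si-HOIL-1#1 and si-HOIL-1#2 in the sample labels, and RNA was taken 48 h later. The labels name no other allele or agent for any of the 3 libraries. With 1 library per condition, the spread between replicates is unknown and no p-value was computed. The siRNAs are different reagents, were not treated as replicates, and were both set against the same si-Control library.

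The respiratory chain passes electrons from NADH through complex I, or from succinate through complex II, to complex III and complex IV, where oxygen is reduced. Complexes I, III and IV pump protons across the inner mitochondrial membrane, and complex V, the ATP synthase, uses the gradient to make ATP. Complexes I, III, IV and V are built from subunits of both genomes, whereas complex II is encoded in the nucleus alone. The mitochondrial DNA is transcribed from each strand as a long RNA that is cut into tRNAs, rRNAs and mRNAs, and clear cell renal tumours are known for a shift of energy metabolism away from respiration.

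Both genomes hold sequence that matters for reading the values. Neighbouring mitochondrial genes overlap, so a read in the shared bases cannot be given to a single gene. The pairs that share the most bases are shown 5′ to 3′ on the heavy-strand transcript, with the shared bases in capitals and 12 bases to each side. The overlap of ATP8 and ATP6 lies at chrM:8527-8572 and that of ND4L and ND4 at chrM:10760-10766 of the reference mitochondrial sequence of GRCh38 (GENCODE v29), whose gene positions equal those in the deposited table for 37 of 37 mitochondrial rows.
ATP8/ATP6: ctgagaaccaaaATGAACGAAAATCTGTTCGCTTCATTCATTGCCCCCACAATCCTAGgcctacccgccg
ND4L/ND4: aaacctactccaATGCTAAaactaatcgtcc
The first overlap, of 46 bases, is 22.2% of ATP8 and 6.75% of ATP6, and the second, of 7 bases, is 2.36% of ND4L and 0.508% of ND4.

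Nuclear respiratory chain genes are known targets of the factors NRF1, GABPA and YY1. Promoters from RefSeq (GRCh38.p14, 250 bases before to 50 after the start of the gene) were found for 78 of the 97 nuclear genes, and the letters of a site for each factor were searched on both strands. For NRF1 the letters were GCGCA, any base and GCGC, for GABPA CCGGAAGT, and for YY1 AANATGGCG, where N is any base. The NRF1 letters were in 17 of the 78 promoters (21.8%), against 12.7% of the promoters of 8878 other measured protein-coding genes and 6.28% of 27305 promoters in all. The YY1 letters were in 16 of 78 (20.5%), against 7.69% and 3.37%, and the GABPA letters were in 9 of 78 (11.5%), against 9.86% and 4.44%. The promoters of SDHA, NDUFA8 and UQCRFS1 are shown 5′ to 3′ on the strand of each gene because these genes were at least 1.5-fold higher with both siRNAs and hold the NRF1 letters, which overlap one another in NDUFA8. Capitals mark NRF1 letters, and in UQCRFS1 also YY1 letters nearer the 3′ end. They lie at chr5:218070-218369 (plus strand), chr9:122159730-122160029 (minus strand) and chr19:29213102-29213401 (minus strand).
SDHA: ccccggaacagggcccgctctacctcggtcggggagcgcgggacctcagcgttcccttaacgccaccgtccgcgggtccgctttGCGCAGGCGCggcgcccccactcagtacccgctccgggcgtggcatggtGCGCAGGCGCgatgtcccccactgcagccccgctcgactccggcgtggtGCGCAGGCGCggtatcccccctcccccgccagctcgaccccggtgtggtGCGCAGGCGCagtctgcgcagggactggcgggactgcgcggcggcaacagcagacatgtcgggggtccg
NDUFA8: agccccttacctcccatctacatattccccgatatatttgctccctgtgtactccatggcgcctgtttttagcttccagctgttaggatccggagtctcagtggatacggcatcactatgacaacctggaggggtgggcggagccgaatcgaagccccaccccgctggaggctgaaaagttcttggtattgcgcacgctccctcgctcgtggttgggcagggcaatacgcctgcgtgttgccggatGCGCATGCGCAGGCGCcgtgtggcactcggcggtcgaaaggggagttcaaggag
UQCRFS1: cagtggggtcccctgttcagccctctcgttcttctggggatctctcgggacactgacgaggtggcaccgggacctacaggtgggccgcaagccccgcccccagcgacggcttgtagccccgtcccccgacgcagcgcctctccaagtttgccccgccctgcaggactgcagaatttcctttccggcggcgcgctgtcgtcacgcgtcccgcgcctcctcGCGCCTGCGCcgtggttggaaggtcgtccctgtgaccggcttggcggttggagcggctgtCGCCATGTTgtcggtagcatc
SDHA holds 4 matches to the NRF1 letters, NDUFA8 holds 2 and UQCRFS1 holds 1. A match is a description of the letters and not of binding. Over the 16 measured nuclear genes with the NRF1 letters the log2 ratio had medians of 0.32 and 0.24 (si-RBCK1 #1 first, here and wherever a pair of ratios is given), beside 0.23 and 0.18 for the 57 without them. For the other factors the order was reversed, with 0.08 and 0.16 over 9 genes with the GABPA letters beside 0.25 and 0.20 over 64 without, and 0.17 and 0.14 over 16 genes with the YY1 letters beside 0.24 and 0.18 over 57 without. Of the 5 genes at least 1.5-fold higher with both siRNAs that have a promoter here, 3 held the NRF1 letters. The YY1 letters were in 2 of the 5, UQCRFS1 and NDUFS6, and the GABPA letters in 0. NDUFS6 and ATP5SL lacked the NRF1 letters. The 5 genes were picked by their ratios, so these counts do not set any of the factors apart.

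The values are RPKM, reads scaled to gene length and to the library's total of reads. A log2 ratio below is the log2 of (RPKM + 1) in a si-RBCK1 library less that in si-Control, which understates the change of genes near 1 RPKM, and a gene was counted as measured where its mean over the libraries was 1 RPKM or more (12403 genes). Reads per gene were recovered from the RPKM values, and intervals given with a log2 read ratio are exact Clopper-Pearson 95% intervals that cover counting error only. The totals behind the RPKM values were 36926834 reads (si-Control), 40442939 reads (si-RBCK1 #1) and 36344428 reads (si-RBCK1 #2). RBCK1 itself (chr20:388694-412783, plus strand, hg19) stood at 33.3 RPKM in si-Control, 9.97 in si-RBCK1 #1 and 12.3 in si-RBCK1 #2. By reads it was at 29.9% of its control level with si-RBCK1 #1 and 36.8% with si-RBCK1 #2. Of the markers taken for the renal epithelial line, PAX8, KRT8 and KRT18 lay between 65.6 and 238 RPKM and VIM between 664 and 1512. VIM, KRT8 and KRT18 were at their lowest in si-Control and PAX8 at its highest there (124, 82.5 and 107 RPKM). The immune and endothelial markers PTPRC, CD3E, CD14, PECAM1 and CDH5 were at most 0.315 RPKM in every library. Of the fibroblast markers, COL1A1 was at 3.21 to 4.68 RPKM, PDGFRB at 0.623 to 0.796 and DCN at most 0.0422.

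Nuclear respiratory chain genes were, as a group, slightly higher after RBCK1 depletion, while the 13 mitochondrial genes lay on both sides of their control level, with a median near it. Of the 97 nuclear genes, 88 were measured, with a median ratio of 0.24 in the si-RBCK1 #1 library and 0.19 in that of si-RBCK1 #2. The median over all measured genes was 0.02 and 0.04, and over other protein-coding genes 0.03 and 0.04. The nuclear genes were higher than in si-Control in 72 of 88 cases with si-RBCK1 #1 and in 68 with si-RBCK1 #2, against 51.5% and 53.5% of all measured genes. They were higher with both siRNAs in 65 cases, lower with both in 13 and of opposite sign in 10, where 43.3% of all measured genes were higher with both and 38.2% lower with both. The 13 mitochondrial genes ran from -0.47 to 0.48 with si-RBCK1 #1 and from -0.23 to 0.34 with si-RBCK1 #2, with medians of 0.01 and 0.08, so that their median lay below that of the nuclear genes by a difference of -0.24 and -0.11. The sign of the mitochondrial median with si-RBCK1 #1 turned under other scalings of the libraries, while the sign of the difference from the nuclear genes held under every alternative run.

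Large changes were few. At least 1.5-fold changed were 9 of the 101 measured genes with si-RBCK1 #1, where 23.7% of all measured genes passed that size. Of these, 8 were higher (12.1% of all genes) and 1 was lower (11.6%). With si-RBCK1 #2 there were 14 (20.6% of all genes), 12 of them higher (11.3%) and 2 lower (9.32%). None of the 13 mitochondrial genes reached 1.5-fold with either siRNA. Higher by at least 1.5-fold with both siRNAs were 7 nuclear genes, where 7.47% of all measured genes were, and lower with both was 1, where 6.24% were. At least 2-fold changed was 1 gene with si-RBCK1 #1 (UQCRHL, 6.18% of all genes) and 0 with si-RBCK1 #2 (4.76% of all genes). Without the pseudocount, UQCRHL (higher) and NDUFA4L2 (lower) were both past 2-fold in both si-RBCK1 libraries. The shares over all measured genes, here and below, were not matched for abundance. In si-Control the median level was 60.2 RPKM for the measured respiratory chain genes and 2375 RPKM for the mitochondrial ones, beside 8.38 RPKM for all measured genes. The part of abundance in the counts was not tested. In bulk RNA, a change in the number of mitochondria per cell and a change in RNA per mitochondrion cannot be told apart.

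**Figure D1:**
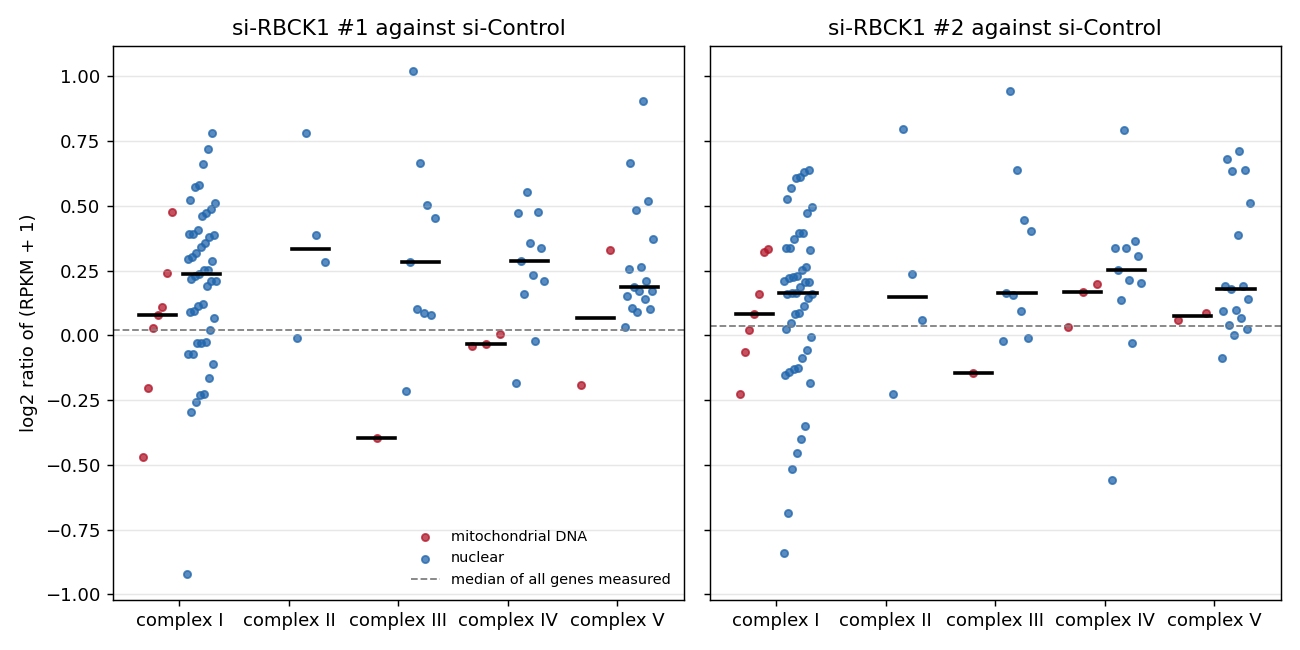
Log2 ratio of (RPKM + 1) to si-Control (y axis, left panel si-RBCK1 #1, right panel si-RBCK1 #2) for the 101 measured respiratory chain genes by complex (x axis). Each point is 1 gene, red for mitochondrial DNA and blue for nuclear, black bars are medians and the dashed line is the median of all 12403 measured genes; the nuclear bars lie above the dashed line in all 5 complexes, and the single mitochondrial gene of complex III lies below it.

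The mitochondrial genes were among the most abundant RNAs of the cells. Their reads made up 4.66% of the si-Control library, 4.33% of si-RBCK1 #1 and 4.80% of si-RBCK1 #2. The nuclear respiratory chain genes together took at least 0.623%, 0.737% and 0.703% of reads in the same order. These are lower bounds, since reads recovered at too short a length are too few. The mitochondrial share was thus lowest with si-RBCK1 #1 and highest with si-RBCK1 #2. The nuclear share, as recovered, was higher than control with both. Because each mitochondrial gene had at least 15539 reads in every library, the widest of their counting intervals spanned 0.0643 on the log2 scale.

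Complex I takes 7 subunits from the mitochondrial DNA, which form part of its proton-pumping membrane arm. ND4 was the most abundant of them, with 7125 RPKM in si-Control, 5139 in si-RBCK1 #1 and 6089 in si-RBCK1 #2, log2 ratios of -0.47 and -0.23. This was the lowest ratio among the 13 mitochondrial genes with each siRNA. ND1, the first mRNA after the rRNAs, went the other way, from 2375 RPKM to 2806 and 2972, ratios of 0.24 and 0.32. ND2 stood at 2331, 2512 and 2601 RPKM, ratios of 0.11 and 0.16. ND3 was at 1218 RPKM in si-Control, 1694 in si-RBCK1 #1 and 1236 in si-RBCK1 #2. Its ratio of 0.48 with si-RBCK1 #1 was the highest of the 13 genes, whereas that with si-RBCK1 #2 was 0.02 with a counting interval of the read ratio from -0.01 to 0.05. ND5 showed the reverse order of the siRNAs, with 1345, 1421 and 1696 RPKM and ratios of 0.08 and 0.34. ND4L, which shares its RNA with ND4, was at 2438, 2486 and 2579 RPKM, ratios of 0.03 and 0.08. ND4L thus stayed near control where ND4, on the same bicistronic RNA, was lower with both siRNAs. ND6, the only one of the 13 read from the other strand, was at 1183, 1027 and 1130 RPKM, ratios of -0.20 and -0.07.

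Complex III has a single mitochondrial subunit, CYTB, which carries the haem groups of the quinone sites. CYTB was at 2107 RPKM in si-Control, 1600 in si-RBCK1 #1 and 1904 in si-RBCK1 #2, ratios of -0.40 and -0.15. Along with ND4 and ND6 it was 1 of 3 mitochondrial genes lower with both siRNAs. The catalytic core of complex IV is made of COX1, COX2 and COX3, the cytochrome oxidase subunits and not the prostaglandin synthases of similar name. COX1, at 8399, 8173 and 8588 RPKM, was the most abundant of the 13 genes in all 3 libraries and had ratios of -0.04 and 0.03. COX2 was at 5609, 5630 and 6298 RPKM, ratios of 0.01 and 0.17. COX3 was at 5467, 5341 and 6268 RPKM, ratios of -0.03 and 0.20. The 3 genes of complex IV were therefore within 0.04 of control with si-RBCK1 #1 on the log2 scale and all higher with si-RBCK1 #2.

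Complex V takes ATP6, a part of its proton channel, and the small subunit ATP8 from the mitochondrial DNA. ATP6 was at 5798 RPKM in si-Control, 5074 in si-RBCK1 #1 and 6042 in si-RBCK1 #2, ratios of -0.19 and 0.06. ATP8, on the same RNA, was at 2123, 2668 and 2255 RPKM, ratios of 0.33 and 0.09. With si-RBCK1 #1 the overlapping genes thus lay on opposite sides of control, as the read ratios and their intervals also did, at -0.19 (-0.20 to -0.18) for ATP6 and 0.33 (0.30 to 0.36) for ATP8. How the authors' counting treated reads in the overlap shown above is not given in the sources used here, and its part in these values was not tested. Across the 13 genes, gene length and the log2 ratio had Spearman correlations of -0.37 and 0.07. Over the 12 heavy-strand mRNAs, position along the mitochondrial DNA and the ratio had a Spearman correlation of -0.38 and -0.37. Both are descriptions over genes of the same 3 libraries, which are not independent points.

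Of the mitochondrial rRNAs, the 12S rRNA lay above every mitochondrial mRNA in its ratios and the 16S rRNA lay among them. RNR1, the 12S rRNA, was at 1140 RPKM in si-Control, 1945 in si-RBCK1 #1 and 1741 in si-RBCK1 #2, ratios of 0.77 and 0.61. RNR2, the 16S rRNA, was at 9489, 10879 and 10195 RPKM, ratios of 0.20 and 0.10. Both rRNAs were thus higher with both siRNAs, the 12S rRNA by more. The libraries had been made after removal of rRNA with a Ribo-Zero kit, and rRNA levels after such a step depend on it; its part here was not tested. Of 22 mitochondrial tRNA rows, 5 had a mean of at least 1 RPKM, and TRNP stood far above the others at 332, 564 and 489 RPKM, while no other tRNA passed 10.8 RPKM in any library.

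**Figure D2:**
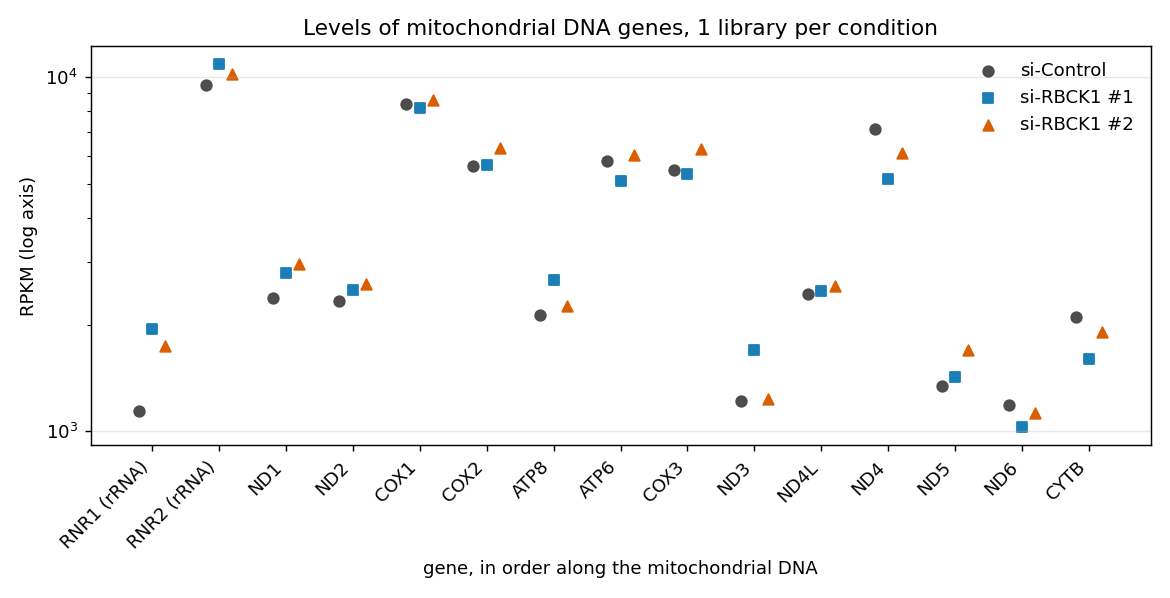
RPKM (y axis, log scale) of the 2 rRNA genes and the 13 protein-coding genes of the mitochondrial DNA in their order along the molecule (x axis), with 1 point per library (grey circle si-Control, blue square si-RBCK1 #1, orange triangle si-RBCK1 #2). The protein-coding genes lie between 1027 and 8588 RPKM; RNR1 is higher in both si-RBCK1 libraries, and ND4 and CYTB are lower in both.

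Most nuclear genes of complex I were higher, while its 7 catalytic core subunits lay on both sides of control. Of 48 nuclear genes named for complex I, 47 were measured, with medians of 0.24 and 0.16. Of these, 30 were higher with both siRNAs and 9 lower with both. Beside these counts and those of the groups and complexes below, 43.3% of all measured genes were higher with both and 38.2% lower with both. The 31 genes taken as accessory subunits, which surround and stabilise the enzyme, had medians of 0.30 and 0.22, and 24 were higher with both. They include NDUFA4, which is now counted with complex IV. The 7 core subunits of the nuclear genome, which hold the flavin and the iron-sulfur clusters or lie beside the quinone, had medians of -0.03 and -0.09 and ran from -0.26 to 0.58 with si-RBCK1 #1 and from -0.35 to 0.40 with si-RBCK1 #2; 2 were higher with both and 3 lower with both. Higher were NDUFV1, the flavin-binding subunit, at ratios of 0.07 and 0.16, and NDUFS3, at 0.58 and 0.40. NDUFV2, the most abundant nuclear gene of complex I in si-Control, was at 167 RPKM there, 163 in si-RBCK1 #1 and 131 in si-RBCK1 #2, ratios of -0.03 and -0.35.

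NDUFS6, an accessory subunit of the NADH-oxidising module (chr5:1801496-1816165, plus strand, hg19), was at 74.5 RPKM in si-Control, 129 in si-RBCK1 #1 and 114 in si-RBCK1 #2, ratios of 0.78 and 0.61. NDUFA8, a subunit facing the intermembrane space (chr9:124894745-124922098, minus strand), was at 22.3, 37.4 and 35.1 RPKM, ratios of 0.72 and 0.63. Both were above the control library with each siRNA by at least 1.5-fold, and their counting intervals stayed above 0, from 0.56 to 0.93 for NDUFA8 with si-RBCK1 #1. NDUFB6 passed 1.5-fold with si-RBCK1 #1 only (0.66 and 0.50) and NDUFA2 with si-RBCK1 #2 only (0.25 and 0.61). That a gene passed with a single siRNA does not show that the siRNAs differed. Lower with both siRNAs were the accessory subunits NDUFS4 (-0.23 and -0.45), NDUFA5 (-0.30 and -0.40) and NDUFA10 (-0.07 and -0.12). NDUFA5 has 10 pseudogenes named after it in the table, with which it may share reads.

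NDUFA4L2 (chr12:57628686-57634545, minus strand, hg19) was the only member at least 1.5-fold lower with both siRNAs. It passed the mean of 1 RPKM only through its level in si-Control, so that it counts as measured because it was high there. It is a paralog of NDUFA4 known as a hypoxia-induced gene of clear cell renal tumours. Its level was 2.12 RPKM in si-Control, 0.645 in si-RBCK1 #1 and 0.741 in si-RBCK1 #2, ratios of -0.92 and -0.84. These values rest on 93, 31 and 32 reads, and the log2 read ratio without a pseudocount was -1.72 (-2.35 to -1.12) with si-RBCK1 #1 and -1.52 (-2.14 to -0.92) with si-RBCK1 #2. NDUFA4, the common form, which is now counted with complex IV, went the other way at 38.0, 53.6 and 49.4 RPKM, ratios of 0.49 and 0.37. HIF1A and EPAS1, which encode the hypoxia-inducible factors and were looked up after the values of NDUFA4L2 were seen, had ratios of -1.14 and -0.70 for HIF1A and of -0.58 and -0.40 for EPAS1; their part in the level of NDUFA4L2 was not tested.

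The rule also takes in the complex I assembly factors NDUFAF1 to NDUFAF8, which help build the enzyme and are not part of it. The 8 factors had medians of 0.23 and 0.08, with 4 higher with both siRNAs and 2 lower with both. NDUFAF8 was at 115 RPKM in si-Control, 166 in si-RBCK1 #1 and 180 in si-RBCK1 #2, ratios of 0.52 and 0.64. NDUFAF4 was at 9.14, 7.64 and 5.31 RPKM, ratios of -0.23 and -0.69, and NDUFAF5, the partner of NDUFAF8, was at 2.99, 2.70 and 1.79 RPKM, ratios of -0.11 and -0.51. The other 5 factors, none at 1.5-fold, were NDUFAF1 (0.25 and 0.18), NDUFAF2 (0.36 and -0.06), NDUFAF3 (-0.02 and 0.11), NDUFAF6 (0.34 and 0.05) and NDUFAF7 (0.21 and 0.21). The factors did not share a direction.

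Complex II oxidises succinate and links the chain to the citric acid cycle. Its flavoprotein SDHA (chr5:218338-257197, plus strand, hg19), which binds succinate, was at 35.4 RPKM in si-Control, 61.5 in si-RBCK1 #1 and 62.2 in si-RBCK1 #2, ratios of 0.78 and 0.80. With 3642 reads in si-Control the counting intervals of the read ratio were 0.74 to 0.86 and 0.76 to 0.87. The 3 copies named SDHAP1, SDHAP2 and SDHAP3 share sequence with SDHA and stood 0.38 to 0.44 higher with si-RBCK1 #1 and 0.51 to 0.59 higher with si-RBCK1 #2, each at most 5.89 RPKM, so reads may have been split between them. The iron-sulfur subunit SDHB, the most abundant of the 4, was at 78.6, 95.8 and 81.8 RPKM, ratios of 0.28 and 0.06. The membrane anchors SDHC and SDHD differed from each other in sign, at 0.39 and 0.24 for SDHC and -0.01 and -0.23 for SDHD. SDHA was thus the only one of the 4 past 1.5-fold with either siRNA.

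Complex III passes electrons from quinone to cytochrome c. The 9 nuclear genes that the rule takes in for it had medians of 0.28 and 0.16, and 7 were higher with both siRNAs. CYC1, a further nuclear subunit, lies outside the rule and is given below. UQCRFS1, the Rieske iron-sulfur subunit (chr19:29698167-29704136, minus strand, hg19), was at 51.5, 82.4 and 80.8 RPKM, ratios of 0.67 and 0.64. A copy, UQCRFS1P1, was at 1.95, 3.78 and 3.91 RPKM. UQCRH, the hinge protein and the most abundant of the 9, was at 139, 198 and 190 RPKM, ratios of 0.50 and 0.45. UQCRHL, an intronless copy of UQCRH (chr1:16133657-16134194, minus strand, hg19), was at 1.96, 5.01 and 4.71 RPKM, ratios of 1.02 and 0.95, on 39, 109 and 92 reads. Its sequence is nearly that of UQCRH, at whose level a small share of misplaced reads would make up the whole of its value, so its own level is uncertain. The core proteins UQCRC1 and UQCRC2 lay at 0.08 and 0.09 and at -0.21 and -0.02, and UQCRC2, at 80.6, 69.3 and 79.3 RPKM, had the lowest ratio with si-RBCK1 #1 among the nuclear genes of the complex, above the mitochondrial CYTB.

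Of 17 nuclear genes named for complex IV, 11 were measured, with medians of 0.29 and 0.25, and 9 were higher with both siRNAs. COX7C was the most abundant, at 278 RPKM in si-Control, 352 in si-RBCK1 #1 and 332 in si-RBCK1 #2, ratios of 0.34 and 0.25. COX6B1, which faces the intermembrane space, was at 65.7, 97.0 and 115 RPKM, ratios of 0.55 and 0.79. It was the only complex IV gene past 1.5-fold, with si-RBCK1 #2. COX7A2L, which joins complexes III and IV into supercomplexes and is not a usual subunit, had the lowest ratios, at 43.6, 38.2 and 29.3 RPKM, ratios of -0.18 and -0.56.

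Several complex IV subunits have isoforms of heart and skeletal muscle, lung or testis. The broadly expressed forms COX4I1 (0.21 and 0.21), COX6A1 (0.29 and 0.31), COX7A2 (0.36 and 0.14), COX7B (0.48 and 0.36) and COX8A (0.23 and 0.34) were all measured and all higher with both siRNAs. Their counterparts COX6A2, COX6B2, COX7B2 and COX8C were listed at 0 in every library. COX4I2 had 1 read, in si-Control. COX7A1, the muscle form of COX7A2, was at 0.711, 0.324 and 0.181 RPKM on 20, 10 and 5 reads, under the level counted as measured. The complex IV isoform pattern of Caki-1 was thus that of broadly expressed forms in all 3 libraries.

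In complex V, the ATP synthase, nearly all nuclear genes were higher. Of 19 nuclear genes named for it, 17 were measured, with medians of 0.19 and 0.18. With si-RBCK1 #1 all 17 were higher than in si-Control, and 16 were with both siRNAs. Some lay close to control, such as ATP5H at 0.03 with si-RBCK1 #1, and such signs can turn under another scaling. The 5 subunits of the catalytic F1 head lay at 0.17 to 0.26 with si-RBCK1 #1 and at 0.10 to 0.51 with si-RBCK1 #2. ATP5B, the catalytic beta subunit and the most abundant nuclear gene of the chain, was at 363 RPKM in si-Control, 434 in si-RBCK1 #1 and 415 in si-RBCK1 #2, ratios of 0.25 and 0.19. The c-ring, which turns as protons pass, is encoded by 3 genes whose products are the same mature protein. ATP5G3 (chr2:176040986-176046490, minus strand, hg19) was at 27.5, 52.4 and 44.7 RPKM, ratios of 0.90 and 0.68, and ATP5G1 was at 52.4, 73.8 and 82.2 RPKM, ratios of 0.48 and 0.64. ATP5G2 was at 45.9, 49.4 and 43.2 RPKM, ratios of 0.10 and -0.09. ATP5G3 was thus the lowest of the 3 in si-Control and had the highest ratio of all measured subunits with si-RBCK1 #1, while ATP5G2 stayed near control. ATP5J2, a membrane subunit, passed 1.5-fold with si-RBCK1 #2 at ratios of 0.52 and 0.71.

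ATP5SL (chr19:41937223-41945843, minus strand, hg19), named for the ATP synthase but known as an assembly factor of the membrane arm of complex I, was at 12.2, 19.9 and 19.5 RPKM, ratios of 0.67 and 0.64. ATP5S lay at 0.09 and 0.00 on 152 reads in si-Control, with counting intervals on both sides of 0. The gene copy ATP5L2 and the readthrough ATP5J2-PTCD1 were listed at 0 in all libraries, and the readthrough NDUFC2-KCTD14 had 1 read, in si-RBCK1 #1. With the 6 complex IV isoforms these make up the 9 nuclear genes that were not measured.

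**Figure D3:**
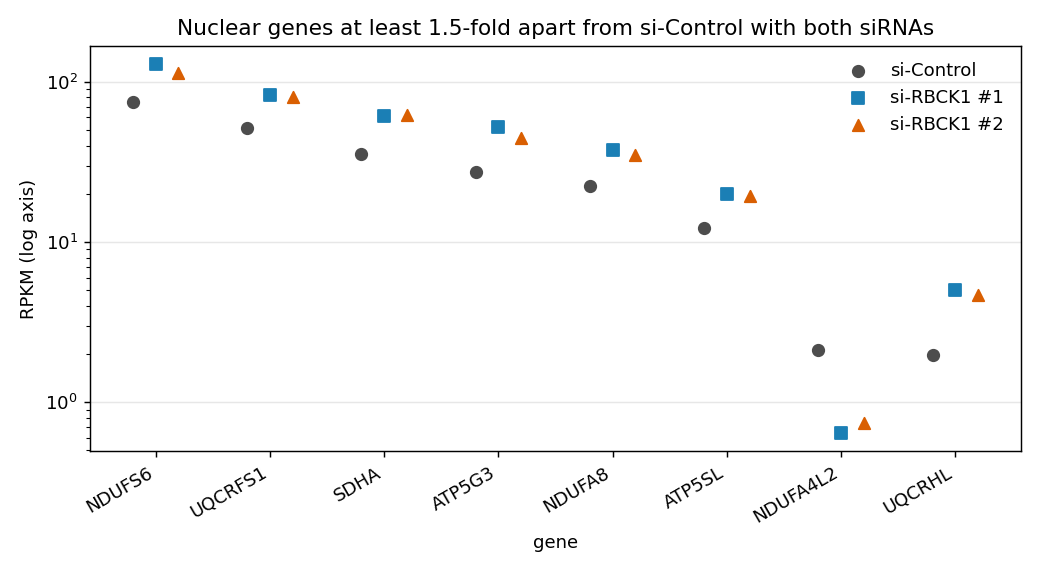
RPKM (y axis, log scale) of the 8 nuclear genes at least 1.5-fold higher or lower than si-Control with both siRNAs (x axis, ordered by si-Control level), with 1 point per library (grey circle si-Control, blue square si-RBCK1 #1, orange triangle si-RBCK1 #2). For 7 genes both si-RBCK1 points lie above the control point, and for NDUFA4L2, measured only through its si-Control level, both lie below it at 0.645 and 0.741 RPKM.

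The ratio of the nuclear genes varied with their length. Respiratory chain genes are short, and across other protein-coding genes short ones were also higher than long ones in both si-RBCK1 libraries. Other protein-coding genes of up to 500 nt had medians of 0.22 and 0.21, those of 500 to 750 nt 0.16 and 0.13, and those over 5000 nt -0.10 and -0.03. The 45 nuclear respiratory chain genes of up to 1000 nt had medians of 0.34 and 0.31, beside 0.15 and 0.13 for 606 other protein-coding genes of that length. The 43 longer ones had medians of 0.17 and 0.10, beside 0.02 and 0.04 for 10054 others, which were longer (median 3396 nt against 1843 nt). From 2000 to 3000 nt the nuclear genes (n = 15) had medians of 0.10 and 0.08 beside 0.09 and 0.10 for the others, and from 3000 to 5000 nt (n = 3) -0.03 and -0.14 beside 0.02 and 0.03. Of the 21 nuclear genes over 2000 nt, 12 with si-RBCK1 #1 and 9 with si-RBCK1 #2 lay above the median of their class. Within 8 classes of length, 63 of the 88 nuclear genes with si-RBCK1 #1 and 58 with si-RBCK1 #2 lay above the median of the other genes of their own class. The lengths are those implied by whole reads and may be too short where reads share a divisor; the part of length in the shift was not tested. By counting intervals alone, 65 nuclear genes lay above control with si-RBCK1 #1 and 10 below it, and 60 above and 13 below with si-RBCK1 #2. The share of all measured genes with such intervals is not given here, so these counts do not set the chain apart from other genes. Pseudogenes named after them were in the table for 41 of the nuclear genes, and 18 overlapped another gene on the same strand, so some of their reads are uncertain.

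**Figure D4:**
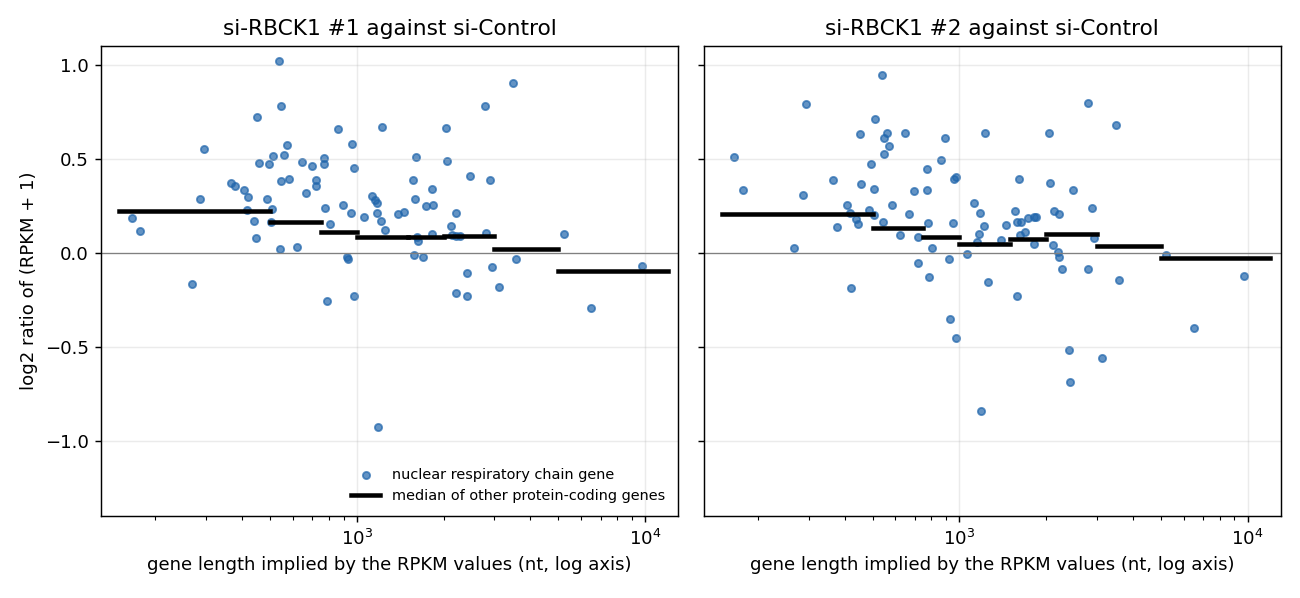
Log2 ratio of (RPKM + 1) to si-Control (y axis, left panel si-RBCK1 #1, right panel si-RBCK1 #2) against gene length in nt implied by the RPKM values (x axis, log scale) for the 88 measured nuclear respiratory chain genes (blue points). Black bars are medians of other protein-coding genes in 8 classes of length; the bars go from 0.22 for the shortest class to -0.10 for the longest in the left panel and from 0.21 to -0.03 in the right panel, and 63 and 58 of the points lie above the bar of their class.

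Other genes of mitochondrial respiration were taken from lists of related roles. Of 41 assembly factors outside the rule, 25 were higher with both siRNAs (43.3% of all measured genes) and 13 lower with both (38.2%). Their medians were 0.29 and 0.18. At least 1.5-fold higher with both were 3 (7.32%, beside 7.47% of all measured genes), namely SCO2, PET100 and ATPAF2. SCO2, a copper chaperone of complex IV, was at 0.418, 1.69 and 2.14 RPKM, ratios of 0.92 and 1.15 and log2 read ratios without a pseudocount of 2.02 (1.32 to 2.77) and 2.36 (1.67 to 3.11). It counts as measured only through the si-RBCK1 libraries, where it was high, and its place among the 3 rests on that. TIMMDC1, a membrane-arm assembly factor of complex I, was at 84.8, 60.4 and 60.6 RPKM, ratios of -0.48 and -0.48. Both were outside the counting error of control, and the list held genes on each side.

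The 28 genes of mitochondrial DNA replication, transcription and RNA processing had medians of 0.22 and 0.08, with 16 higher with both siRNAs (43.3% of all measured genes), 4 lower with both (38.2%) and 3, or 10.7%, at least 1.5-fold higher with both (7.47%), namely POLG, ELAC2 and FASTKD5. POLG, the mitochondrial DNA polymerase, was at 9.37 RPKM in si-Control, 22.8 in si-RBCK1 #1 and 23.7 in si-RBCK1 #2, ratios of 1.20 and 1.25. PNPT1, an RNA-degrading enzyme, was at 15.2, 11.3 and 9.56 RPKM, ratios of -0.40 and -0.62. ELAC2, which trims tRNA ends, lay at 0.89 and 0.87, and FASTKD5 at 0.82 and 0.79. POLG was thus more than 2-fold above control with both siRNAs, beside 1.46% of all measured genes.

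The 7 measured regulators of mitochondrial biogenesis, of 8 listed, had medians of -0.04 and 0.08. With both siRNAs 2 were higher (43.3% of all measured genes) and 2 lower (38.2%). At least 1.5-fold changed with both were 0, where 7.47% of all measured genes were higher and 6.24% lower. GABPB1, the partner of GABPA, was at 11.4, 7.47 and 6.20 RPKM, ratios of -0.55 and -0.79, and PPRC1, a coactivator, was at 15.0, 21.5 and 18.4 RPKM, ratios of 0.49 and 0.28. NRF1 was at 4.52, 3.17 and 2.99 RPKM, below control in both libraries. Of the other factors searched in the promoters, GABPA had ratios of 0.01 and 0.08 and YY1 of 0.17 and -0.12. The 14 citric acid cycle genes had medians of 0.03 and 0.05, from IDH3B at 0.56 and 0.41 to DLD at -0.28 and -0.23. Past 1.5-fold were 0 of them, where 23.7% of all measured genes were with si-RBCK1 #1 and 20.6% with si-RBCK1 #2. The 7 other chain genes were the complex III subunit CYC1 and electron carriers and dehydrogenases of the chain. Their medians were 0.07 and 0.04, also with 0 past 1.5-fold. Among them CYC1, a haem-bearing subunit, was at 0.26 and 0.31 and ETFA at -0.03 and -0.30. The 11 genes of outer membrane channels and import had medians of 0.47 and 0.22, with 10 higher with si-RBCK1 #1 and 8 with si-RBCK1 #2, where 51.5% and 53.5% of all measured genes were. At least 1.5-fold higher were 4 with si-RBCK1 #1 and 1 with si-RBCK1 #2, where 12.1% and 11.3% of all genes were. TOMM40, the import pore, was at 54.8, 87.0 and 85.2 RPKM, ratios of 0.66 and 0.63, and TOMM20, an import receptor, was at 128, 111 and 115 RPKM, ratios of -0.20 and -0.15.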

How the data were processed

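RNA from Caki-1 cells was sequenced after removal of ribosomal RNA, with a directional kit and paired ends per the labels, in 1 library each for si-Control, si-RBCK1 #1 and si-RBCK1 #2. The submitters' processing notes name Trimmomatic, FastQC, TopHat2, HTSeq and the build hg19; the gene annotation is not given in the sources used here. The authors deposited 1 table with an RPKM value per gene and library, which was used without further scaling. Its columns of the authors' own comparison (group values, fold changes and their p- and q-values) were not used. A gene with an entry that is not a number was left out.

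Library totals were found from the values of genes of up to 200 nt, of which 1792 of 1804 (99.3%) gave whole reads within 0.002 reads. For other nuclear genes the smallest length of up to 50000 nt that gives whole reads in all 3 libraries was taken, and for mitochondrial genes the length in the table. Whole reads were found for 12389 of 12403 measured genes and for all 101 measured respiratory chain genes. A smaller length than the true one lowers a gene's recovered reads in proportion in all 3 libraries. Too short a length also lowers the nuclear share of reads and can move a gene to a shorter class of length. It widens the counting intervals. Such intervals and floors cover counting error only.

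Ratios used log2(RPKM + 1) and a mean of at least 1 RPKM. With 1 library per condition no test was run; the planned design gave values only. Genes named are RBCK1, all mitochondrial mRNAs and rRNAs, nuclear genes at least 1.5-fold changed in the same direction with both siRNAs, in each complex the most abundant, the highest and the lowest (ranked by the smaller in size of the 2 ratios among genes with the same sign in both libraries), genes under 1 RPKM, isoforms, assembly factors, and in each list the highest and lowest by the same ranking; others were picked after their values were seen. The genes, complexes and lists were chosen with earlier results of these data known. Nuclear positions are those of the deposited table. The alternatives were other scalings, pseudocounts and filters, structural subunits only, other memberships and means in place of medians. The steps were tested on simulated data. That test passed any recovered reads in the true proportion to length, so it could not detect too short a length. Scripts ran in Python 3.11.15 with pandas 2.3.3, scipy 1.17.1, matplotlib 3.10.9 and numpy 2.4.6.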

Additional observations from a re-analysis of the deposited data

How the results depend on the processing

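No paired analysis was possible because there was a single library per condition, and for the same reason no library could be left out. Of 202 values under an alternative, 171 stayed near the value reported, 27 moved and 4 changed sign. The median of the mitochondrial genes with si-RBCK1 #1 changed sign to -0.015 with equal medians, -0.066 with equal totals of nuclear protein-coding genes, -0.051 with equal totals and -0.0054 as a mean. It moved to 0.043 without overlapping genes. With si-RBCK1 #2 it moved to 0.040 with equal medians, 0.054 with equal nuclear totals, 0.048 with equal totals and 0.095 without overlapping genes. The difference from the nuclear genes stayed between -0.25 and -0.20 with si-RBCK1 #1 and between -0.12 and -0.08 with si-RBCK1 #2, and the median of the nuclear genes between 0.17 and 0.25 and between 0.15 and 0.20. With si-RBCK1 #1 the median of complex II moved to 0.26 and that of complex IV to 0.21 with equal nuclear totals. The median of complex III moved to 0.19 with a mean of at least 5 RPKM and for structural subunits only. Without a filter, complex IV moved to 0.16 and, with si-RBCK1 #2, to 0.14, since the genes at 0 then count. As means, complex V moved to 0.28 with si-RBCK1 #1, and with si-RBCK1 #2 complex II moved to 0.22, complex III to 0.31 and complex V to 0.26. The number at least 1.5-fold changed moved to 5 and 7 with a pseudocount of 5 RPKM, and with si-RBCK1 #2 to 9 for structural subunits only. The number at least 2-fold changed moved from 1 to 0 with si-RBCK1 #1 under equal nuclear totals, equal totals, a pseudocount of 5 RPKM, a mean of at least 5 RPKM and structural subunits only, and to 2 in both libraries with a pseudocount of 0.1 RPKM and from reads without a pseudocount, an alternative chosen after seeing the data. Other scalings shifted all ratios by at most 0.07 in size. Counts of genes higher or lower than control were not rerun, and genes with ratios within that size can change sign. Apart from what these choices change by construction, the cause was not tested.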
